A study of Mus musculus with 54 samples.

Results

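The Sox genes encode transcription factors with an HMG-box DNA-binding domain, and 10 of them were followed through retinoic acid differentiation of mouse embryonic stem cells: Sox1, Sox2, Sox3, Sox4, Sox8, Sox9, Sox10, Sox11, Sox17 and Sox21. They were taken by gene symbol from the deposited expression table, in which each is 1 of 21960 genes, and all 10 were among the 14982 genes that passed the filter on low values. Sox proteins bend DNA and usually act together with a partner factor, and members with closely related HMG boxes form groups that can replace each other in part. Sox2 is part of the factor network of pluripotent cells, and with its SoxB1 relatives Sox1 and Sox3 it marks neural progenitors, while the SoxB2 protein Sox21 opposes SoxB1 activity at shared targets. The SoxC factors Sox4 and Sox11 act in young neurons, the SoxE factors Sox8, Sox9 and Sox10 in glia, neural crest and cartilage, and the SoxF factor Sox17 in endoderm and blood vessels.

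The cells were of the R1 line, an established mouse embryonic stem cell line, held undifferentiated in medium with LIF and a serum replacement. Hanging drops were used for 48 h to form embryoid bodies, which were then moved to low-attachment wells in medium to which, as the labels state it, 0.5 mM retinoic acid was added, renewed each day for up to 20 days. PolyA RNA was sequenced in 7 day-0, 3 day-2, 3 day-4, 5 day-10 and 4 day-20 libraries, and the 32 ATAC-seq libraries of the series were not used here. No group without retinoic acid is among the RNA libraries, so a change between days cannot be told apart from a change with time in culture. The labels give all groups the same line and medium, do not say whether day 0 preceded aggregation, and leave it unsaid if same-day libraries were grown as separate cultures. The spread behind every p-value is that between libraries and may be technical.

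Levels are in FPKM, a count of fragments scaled to transcript length and to library size, so that genes can be compared per length, and errors of levels are the SD over same-day libraries. Changes are differences in log2(FPKM + 1) ± SE from limma, fitted over all 22 libraries, and the call threshold was an adjusted p of 0.05 (Benjamini-Hochberg over all 14982 genes). On this scale the change of genes at low levels is understated. The deposited values of a library summed to between 472122 and 678222 FPKM, and read totals were not used here. Across genes, same-day libraries had correlations of 0.990 to 0.998, and none of the 43 pairs held identical values. Marker sums differed between the days, for which the sample titles name no cell type. The sum of 6 pluripotency genes was 4394 to 4641 FPKM at day 0 and 31.9 to 39.0 at day 20, and 6 neuronal genes reached 1135 to 1152 FPKM at day 4. At day 20, 6 astrocyte genes reached 1875 to 2030 FPKM, 7 oligodendrocyte-lineage genes 1694 to 2610 and 6 endoderm genes 147 to 168. RNA was taken from whole cultures, so fewer cells of a type and less RNA per cell cannot be told apart for any gene below.

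Promoter sequence, the 250 bases before the annotated start, was available from RefSeq (mouse GRCm38.p6) for 6 of the 10 genes: Sox1, Sox2, Sox4, Sox8, Sox11 and Sox21. Those of the SoxC pair Sox4 and Sox11, whose transcripts peaked together at day 4, are shown with that of Sox2, whose transcript was highest at day 0. Each is written 5′ to 3′ on the strand of its gene, and capitals mark the CCAAT box word CCAAT or its reverse complement ATTGG and, in Sox2, the Sox-type word ACAAAG. Sox4 lies on the minus strand at chr13:28953700-28953949, Sox11 on the minus strand at chr12:27342719-27342968, and Sox2 on the plus strand at chr3:34649745-34649994.
Sox4: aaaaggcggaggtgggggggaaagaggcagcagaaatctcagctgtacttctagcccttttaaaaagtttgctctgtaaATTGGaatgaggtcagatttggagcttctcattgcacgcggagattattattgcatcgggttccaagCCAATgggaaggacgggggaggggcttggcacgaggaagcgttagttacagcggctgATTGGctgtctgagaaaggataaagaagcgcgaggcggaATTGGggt
Sox11: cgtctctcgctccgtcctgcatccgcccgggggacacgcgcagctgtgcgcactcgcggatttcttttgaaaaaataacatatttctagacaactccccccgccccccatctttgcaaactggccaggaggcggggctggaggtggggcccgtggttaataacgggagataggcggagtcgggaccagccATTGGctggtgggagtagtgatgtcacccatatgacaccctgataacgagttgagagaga
Sox2: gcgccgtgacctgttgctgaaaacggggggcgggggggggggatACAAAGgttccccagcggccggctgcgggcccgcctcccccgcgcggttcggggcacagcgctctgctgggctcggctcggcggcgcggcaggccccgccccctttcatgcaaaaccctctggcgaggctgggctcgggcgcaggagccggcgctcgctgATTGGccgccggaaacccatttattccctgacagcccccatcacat

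The words were searched on both strands, and a match describes letters in the window and not a binding site. CCAAT was found in 33.8% of 32851 mouse promoter windows of this length and in 4 of the 6 Sox windows. The Sox4 window held 4 matches, which began 171, 104, 47 and 8 bases before the start, against 1 match in Sox11 at 60 bases, 1 in Sox2 at 46 bases and 1 in Sox1 at 237 bases. The E-box word CAGCTG, in 13% of all windows, lay 211 bases before the start in Sox4 and 210 bases before it in Sox11, and was in none of the other 4 Sox windows. AGGTCA, the word that retinoic acid receptors and other nuclear receptors read, was in 14% of all windows and in those of Sox2 and Sox4. ACAAAG was in 16.5% of all windows and, among the 6, in Sox2 alone, and no match overlapped another in the 3 sequences shown. The GC box word GGGCGG was in 32.7% of all windows and in 4 of the 6, Sox1, Sox2, Sox8 and Sox11. None of the 6 windows held ACAATG, the octamer ATGCAAAT or TATAAA, which were in 10.7%, 1.6% and 12.4% of all windows. The GC content of the windows shown was 50.8% for Sox4, 58% for Sox11 and 72% for Sox2.

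Each of the 10 genes differed among the 5 days by the limma F test, as did 99.3% of all genes tested, so that count is not particular to them. By day mean, Sox2 was highest at day 0, Sox1 at day 2, Sox3, Sox21, Sox4 and Sox11 at day 4, and Sox8, Sox9, Sox10 and Sox17 at day 20. The highest day was not called apart from the next highest for Sox3 (day 2), Sox21 (day 20), Sox9 (day 4) and Sox17 (day 10). The ratio of the highest to the lowest day mean was 424 for Sox9, 342 for Sox10, 71.7 for Sox11, 53.7 for Sox8, 25.4 for Sox3, 11.5 for Sox21, 10.5 for Sox4, 5.70 for Sox1, 4.01 for Sox17 and 2.91 for Sox2. For Sox8, Sox9 and Sox10 the lowest mean was under 1 FPKM, so their ratios rest on very low values.

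**Figure D1:**
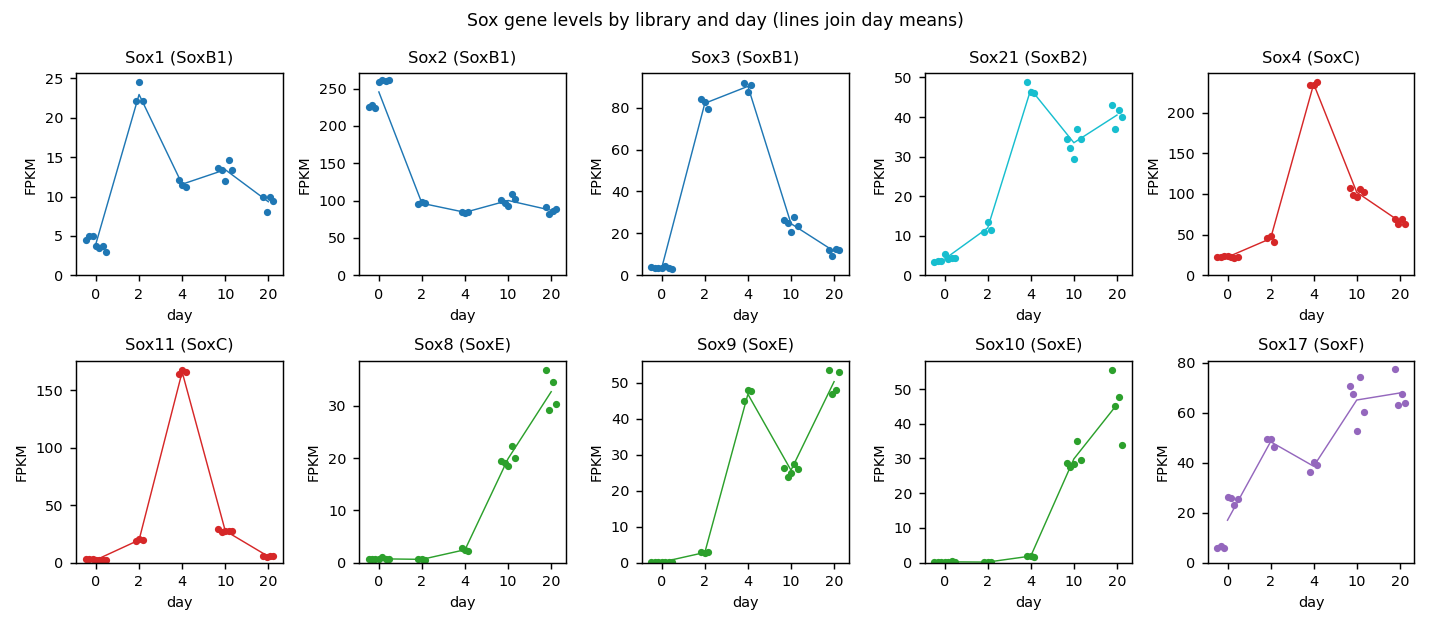
FPKM of each Sox gene (vertical axis, linear, own scale per panel) by day (horizontal axis, days 0, 2, 4, 10 and 20 evenly spaced); each point is 1 of the 22 libraries and lines join day means. Sox2 starts near 245 FPKM and drops by day 2, Sox4 and Sox11 stand out at day 4 at 235 and 166, Sox8 and Sox10 rise after day 4, and the day-0 points of Sox17 fall into 2 clusters.

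From day 0 to day 2, 7 of the 10 genes rose, Sox2 fell and Sox8 and Sox10 were not called, against 74.1% of all genes called, 42% higher and 32.1% lower. The libraries of 9 did not overlap: 7 lay above day 0 in every library and 2 below, as did 37.3% and 28.1% of all genes. At the next step, day 4 against day 2, 6 rose and 2 fell, where 72% of all genes were called, 38% higher and 34% lower. Without overlap 7 were higher and 3 lower, as were 40.8% and 37.4% of all genes. Between days 4 and 10, 3 rose and 5 fell, where 73.7% of all genes were called, 41.4% higher and 32.3% lower. Without overlap 4 were higher and 5 lower, against 43% and 33.5% of all genes. From day 10 to day 20, 4 rose and 5 fell, where 75.2% of all genes were called, 37.2% higher and 38.1% lower. Without overlap 2 were higher and 5 lower, against 34.5% of all genes in each direction. Over the whole course, day 20 against day 0, 9 rose and Sox2 fell, where 90.8% of all genes were called, 55.3% higher and 35.5% lower. Without overlap 9 were higher and 1 lower, against 50.7% and 31.2% of all genes. The share of Sox genes called at each step was thus near that of all genes. Their changes were larger in size: the median absolute log2 change was 1.54 against 0.43 for all genes in the first step, 1.22 against 0.48 in the second, 1.02 against 0.44 in the third, 0.60 against 0.42 in the fourth and 1.86 against 1.05 over the whole course. The 10 genes were chosen with earlier results of these data known, so this difference in size may come from the choice and was not tested.

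**Figure D2:**
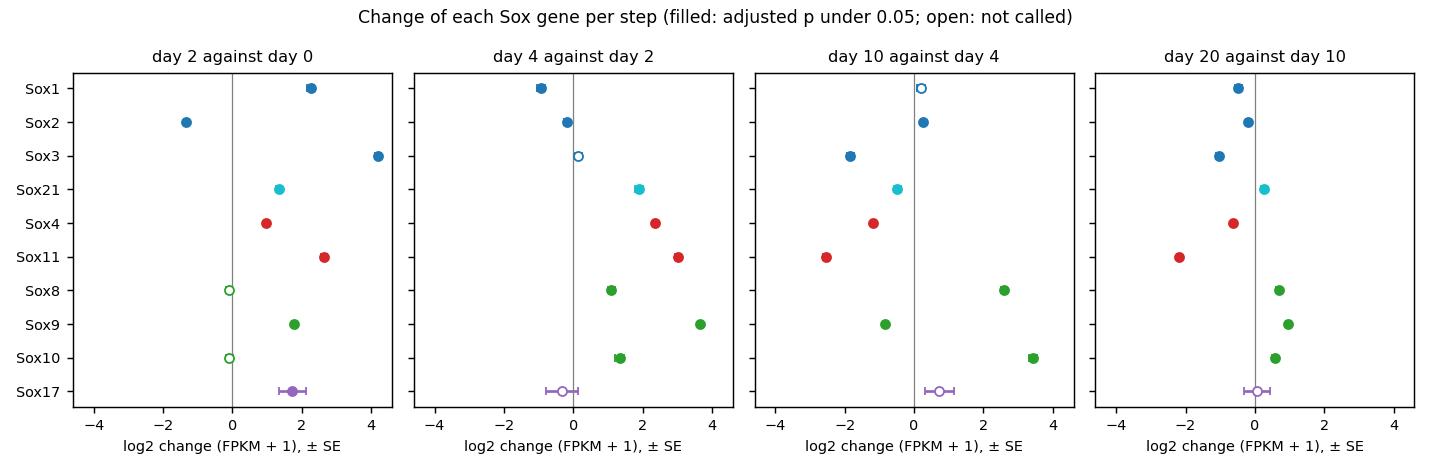
Change in log2(FPKM + 1) of each Sox gene (horizontal axis, ± SE from limma) in each of the 4 consecutive steps; filled points are called at an adjusted p under 0.05 and open points are not. Sox3 changed by 4.19 in the first step and Sox9 by 3.65 in the second, Sox11 rose in the first 2 steps and fell in the last 2, and the error bars of Sox17 are several times longer than those of the other genes.

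Sox2, which holds pluripotent cells together with Oct4 (Pou5f1) and later keeps neural progenitors dividing, was the most abundant of the 10 genes at day 0, with a lowest value of 225, a median of 258 and a highest of 262 FPKM. It measured 94.9, 97.7 and 96.5 FPKM at day 2, 84.2, 83.4 and 85.2 at day 4, 100.7, 97.1, 93.0, 108 and 102 at day 10, and 90.9, 82.6, 86.2 and 88.3 at day 20. Every later library lay below every day-0 library, and the 4 later days stayed within a narrow band. The fall at day 2 was -1.34 ± 0.05 on the log2 scale (adjusted p = 2.54e-15), a day-0 level 2.55 times that of day 2. The later changes were small: -0.19 ± 0.06 from day 2 to day 4 (adjusted p = 0.0119), 0.24 ± 0.06 to day 10 (adjusted p = 0.000734) and -0.20 ± 0.05 to day 20 (adjusted p = 0.00199). The day-4 change turned to 0.10 (adjusted p = 0.118) with all libraries brought to equal sums and was -0.11 (adjusted p = 0.112) after quantile normalization, and equal sums widened the later changes to 0.41 and -0.39. In the order of its day means, day 10 was not called apart from day 2 (adjusted p = 0.406), nor day 20 from day 4 (adjusted p = 0.504).

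Sox3, a SoxB1 gene of neural progenitors, ran the opposite way. It lay between 2.87 and 4.21 FPKM at day 0 with a median of 3.49, and measured 84.1, 82.9 and 79.5 FPKM at day 2 and 92.0, 87.6 and 91.0 at day 4. At day 10 it was 26.3, 25.1, 20.5, 27.8 and 23.7 FPKM, and at day 20 12.3, 9.13, 12.4 and 12.0. All libraries of days 2 and 4 lay above all those of other days, and each day after day 4 lay wholly below the one before. The means of days 2 and 4, 82.1 ± 2.40 (SD, n = 3) and 90.2 ± 2.31 FPKM (SD, n = 3), were not called apart in the fit over all libraries (0.13 ± 0.11, adjusted p = 0.275), although their libraries did not overlap. A fit of those 2 days alone gave an adjusted p of 0.0101, and equal library sums gave a rise of 0.42 (adjusted p = 0.000769). It then fell by 1.84 ± 0.10 to day 10 (adjusted p = 1.94e-13) and by 1.04 ± 0.09 to day 20 (adjusted p = 6.42e-10), and ended 3.22-fold above day 0 (1.45 ± 0.08, adjusted p = 1.98e-13, and 0.66 after quantile normalization).

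Sox1, often the last of the SoxB1 genes to come on in the neural plate, had its highest mean at day 2, after Sox2. Days 2 and 4 of Sox3 were not called apart, so no order between Sox1 and Sox3 is given. Its day-0 values ran from 2.99 to 4.97 FPKM with a median of 3.77, and day 2 gave 22.1, 24.6 and 22.2. It measured 12.1, 11.5 and 11.2 FPKM at day 4, 13.7, 13.3, 12.0, 14.6 and 13.4 at day 10, and 9.90, 7.99, 9.97 and 9.49 at day 20. Day 2 was above all other libraries and day 0 below all others, while days 4 and 10 overlapped. Sox1 rose by 2.26 ± 0.10 to day 2 (adjusted p = 1.41e-14), fell by 0.93 ± 0.12 to day 4 (adjusted p = 5.51e-07), was not called at day 10 (0.20 ± 0.11, adjusted p = 0.109) and fell by 0.48 ± 0.10 to day 20 (adjusted p = 0.000177). The day-10 change was called with equal library sums (0.35, adjusted p = 0.00635) and in a fit of those 2 days alone (adjusted p = 0.0119).

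The SoxB1 genes therefore changed rank. Of the summed SoxB1 level, Sox2 made up 97.0% at day 0, then 47.8% at day 2 and 45.3% at day 4, and later 72.5% at day 10 and 80.8% at day 20. The ratio of Sox2 to Sox3 within a library, in log2 units with 1 FPKM added to each, was 5.76 ± 0.18 (SD, n = 7) at day 0 and 0.23 ± 0.05 (SD, n = 3) at day 2. That drop of -5.53 was larger than the spread between libraries (2-sided exact permutation p = 0.0167, adjusted p = 0.0333 over 24 comparisons of 6 gene pairs and 4 steps). This p is the smallest that 3 against 7 libraries allow, so it does not grade the size of a change. At day 4 the ratio was -0.10 ± 0.03 (SD, n = 3), the only day on which Sox3 was above Sox2 in its mean. It was 1.98 ± 0.10 (SD, n = 5) at day 10 and 2.83 ± 0.15 (SD, n = 4) at day 20. The last step passed the exact permutation test (p = 0.0159, adjusted p = 0.0333), again at the smallest p for 4 against 5 libraries. Steps from day 2 to 4, with 3 against 3 libraries, cannot go below a p of 0.10 in such a test, and those from day 4 to 10 not below 0.0357, or 0.0504 once adjusted, so no ratio passed in either of these steps. For the same reason, without any 1 library of days 2, 10 or 20 none of the 24 comparisons passed, while the ratios themselves kept their direction in every called step.

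Sox21, a SoxB2 gene that favours neuronal differentiation, rose later than Sox3 and stayed. It lay between 3.42 and 5.34 FPKM at day 0 with a median of 4.11, and measured 11.03, 13.4 and 11.4 at day 2 and 48.8, 46.2 and 46.0 at day 4. At day 10 it was 34.5, 32.2, 29.5, 36.9 and 34.4 FPKM, and at day 20 43.2, 36.9, 41.8 and 40.1. Day 4 lay above every other day, and the lowest day-20 library met the highest of day 10. Sox21 rose by 1.35 ± 0.09 to day 2 (adjusted p = 9.79e-12) and by 1.89 ± 0.11 to day 4 (adjusted p = 5.96e-13), then fell by 0.48 ± 0.09 to day 10 (adjusted p = 0.000108). Its rise of 0.27 ± 0.09 at day 20 (adjusted p = 0.00854) was 0.08 (adjusted p = 0.374) with all libraries brought to equal sums, and day 20 was not called apart from day 4 (adjusted p = 0.0538). Relative to Sox2, Sox21 moved from -5.60 ± 0.11 (SD, n = 7) at day 0 to -2.91 ± 0.12 (SD, n = 3) at day 2 (exact permutation p = 0.0167, adjusted p = 0.0333), -0.83 ± 0.05 (SD, n = 3) at day 4 and -1.55 ± 0.04 (SD, n = 5) at day 10. It was -1.09 ± 0.05 (SD, n = 4) at day 20, a rise of 0.47 from day 10 (exact permutation p = 0.0159, adjusted p = 0.0333). The Sox2 transcript thus remained the higher of this pair on every day.

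Among 14 partners and targets of SoxB1 proteins, 5 rose and 7 fell at day 2, 8 rose and 6 fell at day 4, none rose and 10 fell at day 10, and 1 rose and 10 fell at day 20. The medians of their log2 changes were -1.16, 1.32, -0.99 and -0.55, where those of all genes were 0.07, 0.01, 0.07 and -0.02. In the same steps 42%, 38%, 41.4% and 37.2% of all genes rose and 32.1%, 34%, 32.3% and 38.1% fell. The POU factor Pou5f1, partner of Sox2 in stem cells, fell from 865 FPKM at day 0 to 37.9 at day 2 and 3.14 at day 4, and Fgf4, a growth factor gene with a classical Sox2 and Oct4 enhancer, fell from 37.7 to 0.477 at day 2. The neural POU genes Pou3f1 and Pou3f4 rose at day 4, from 0.833 to 19.2 and from 1.26 to 22.1 FPKM. Nes, whose neural enhancer binds Sox and POU factors, fell from 77.8 FPKM at day 4 to 10.2 at day 10, and the Notch target Hes5 fell from 41.0 FPKM at day 10 to 3.57 at day 20.

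The SoxC genes carried the largest summed level of any group on any day. Sox4 lay between 21.0 and 23.4 FPKM at day 0 with a median of 22.2, and measured 45.4, 48.5 and 41.5 at day 2 and 234, 234 and 238 at day 4. At day 10 it was 107, 98.5, 96.1, 107 and 102 FPKM, and at day 20 69.6, 63.0, 68.9 and 62.7. No 2 days overlapped, and day 0 was the lowest and day 4 the highest. Its changes were 0.98 ± 0.05 (adjusted p = 7.82e-14), 2.36 ± 0.06 (adjusted p = 3.58e-19), -1.20 ± 0.05 (adjusted p = 6.60e-15) and -0.62 ± 0.05 (adjusted p = 1.18e-10) in the 4 steps.

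Sox11, which like Sox4 switches on genes of the young neuron such as Tubb3, had a sharper peak. It lay between 1.84 and 2.82 FPKM at day 0 with a median of 2.13, and measured 19.1, 20.3 and 19.4 at day 2 and 164, 168 and 166 at day 4. It was back to 29.1, 27.0, 27.6, 27.3 and 27.4 FPKM at day 10 and to 5.35, 5.05, 5.29 and 5.54 at day 20. The 5 days did not overlap, and day 20 lay just above day 0. The steps were 2.65 ± 0.07 (adjusted p = 4.35e-18), 3.02 ± 0.09 (adjusted p = 7.71e-18), -2.54 ± 0.08 (adjusted p = 2.24e-17) and -2.18 ± 0.07 (adjusted p = 6.23e-17). Between day 0 and day 20 the change was 0.94 ± 0.07 (adjusted p = 1.51e-11), or 0.56 beyond the median change of 0.38 of all genes, and it turned to -0.16 (adjusted p = 0.0414) after quantile normalization, so its direction over the whole course depends on the scaling.

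Sox11 thus gained on Sox4 while both rose and lost on it while both fell. The log2 ratio of Sox11 to Sox4 was -2.82 ± 0.15 (SD, n = 7) at day 0, -1.16 ± 0.09 (SD, n = 3) at day 2 and -0.50 ± 0.02 (SD, n = 3) at day 4. It then returned to -1.85 ± 0.06 (SD, n = 5) at day 10 and -3.41 ± 0.09 (SD, n = 4) at day 20. The step to day 2 (1.66, exact permutation p = 0.0167, adjusted p = 0.0333) and that to day 20 (-1.56, exact permutation p = 0.0159, adjusted p = 0.0333) were larger than the spread. Sox12, the remaining SoxC gene, followed a flatter course with the same peak day: 21.8 ± 3.17 FPKM (SD, n = 7) at day 0, 30.9 ± 1.38 (SD, n = 3) at day 2, 44.5 ± 0.88 (SD, n = 3) at day 4, 29.8 ± 2.45 (SD, n = 5) at day 10 and 12.6 ± 1.71 (SD, n = 4) at day 20.

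**Figure D3:**
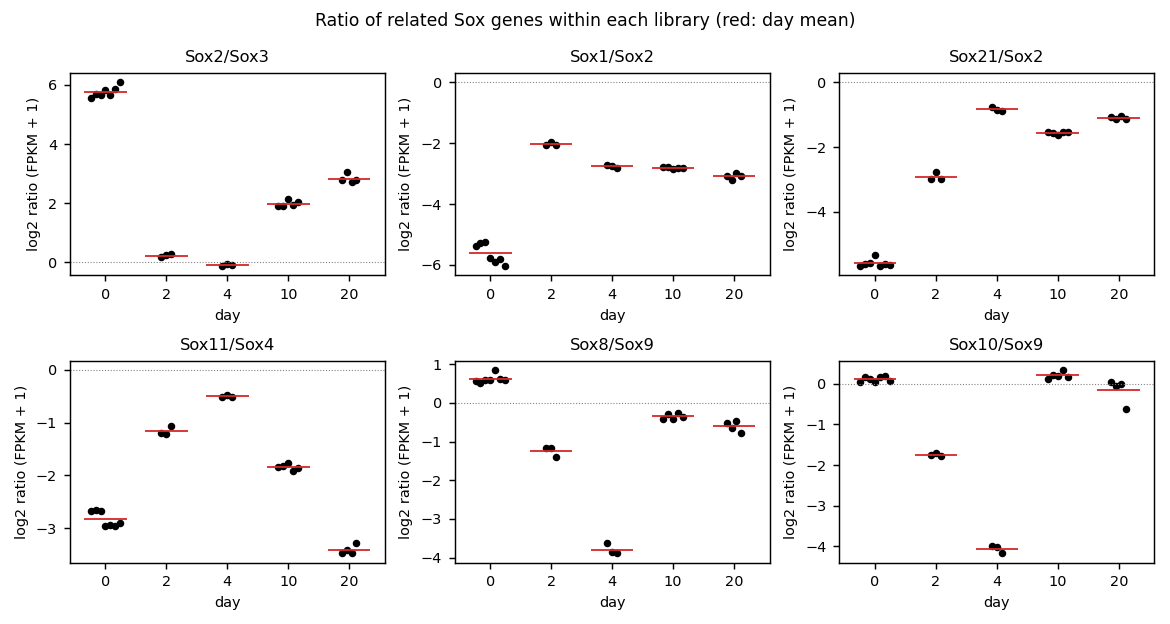
Log2 ratio of 6 pairs of related Sox genes within each library (vertical axis, 1 FPKM added to each gene) by day; black points are libraries and red bars day means. Sox2/Sox3 drops from 5.76 to 0.23 between days 0 and 2, Sox11/Sox4 peaks at -0.50 at day 4, and Sox8/Sox9 and Sox10/Sox9 are lowest at day 4, at -3.79 and -4.06.

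Of 11 neuronal genes linked to SoxC factors, 9 rose and 2 fell at day 2, 10 rose and none fell at day 4, none rose and 10 fell at day 10, and all 11 fell at day 20. Their median log2 change was 0.46, 5.17, -1.29 and -1.58 in these steps, against 0.07, 0.01, 0.07 and -0.02 for all genes. The shares of all genes called were 74.1%, 72%, 73.7% and 75.2%. The proneural factor gene Neurog2 rose already at day 2, from 0.0214 to 17.9 FPKM, when Sox11 was at 19.6. The 2 genes that fell in that step were Tubb3, a neuronal tubulin, from 31.4 to 9.67 FPKM, and the microtubule regulator gene Stmn2, from 91.0 to 3.80. Tubb3 then rose to 688 FPKM at day 4, and the microtubule gene Dcx of migrating neurons from 0.54 to 133. Tubb3 fell to 242 FPKM at day 10 and 59.3 at day 20, and Neurog1 from 67.0 at day 4 to 1.06 at day 10. The sum of 6 neuronal markers was 33.4 to 37.3 FPKM at day 0, lower at day 2 with 15.4 to 16.3 while SoxC rose, 1135 to 1152 at day 4, 571 to 605 at day 10 and 197 to 199 at day 20. The sum is weighted to the most abundant markers, and from day 4 to day 10, while it fell, 2 of the 6 markers rose and 3 fell. Snap25 rose from 35.9 to 74.9 FPKM and Rbfox3 from 14.2 to 29.9. The part of the neuronal markers in the SoxC changes was not tested.

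The SoxE genes came on in the order Sox9, then Sox8 and Sox10. Sox9, which starts the switch of neural progenitors to glia and is also the master factor of cartilage, lay between 0.06 and 0.15 FPKM at day 0 with a median of 0.13. It measured 2.83, 2.71 and 2.86 FPKM at day 2 and 44.8, 48.1 and 47.6 at day 4. At day 10 it was 26.3, 23.7, 24.9, 27.3 and 26.1 FPKM, and at day 20 53.5, 46.8, 48.0 and 52.8. Day 0 lay near the bottom of the scale, day 10 lay between day 2 and day 4, and days 4 and 20 overlapped. Sox9 rose by 1.76 ± 0.05 to day 2 (adjusted p = 9.94e-18) and by 3.65 ± 0.06 to day 4 (adjusted p = 8.06e-22), fell by 0.84 ± 0.06 to day 10 (adjusted p = 9.54e-12) and rose again by 0.94 ± 0.05 to day 20 (adjusted p = 3.00e-13). Day 20 was not called apart from day 4 (adjusted p = 0.120). With 0.1 FPKM added in place of 1, the first rise was 3.74.

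Sox10, which drives oligodendrocyte and Schwann cell genes, stayed low until day 4. It lay between 0.15 and 0.32 FPKM at day 0 with a median of 0.19, and measured 0.14, 0.14 and 0.12 at day 2 and 1.88, 2.02 and 1.69 at day 4. At day 10 it was 28.8, 27.6, 28.4, 35.01 and 29.6 FPKM, and at day 20 55.5, 45.1, 47.8 and 33.8. The day-2 libraries lay below those of day 0, both near 0, and the lowest library of day 20 lay below the highest of day 10. No change was called at day 2 (-0.09 ± 0.10, adjusted p = 0.403), although with 0.1 FPKM added in place of 1 it was -0.40 (adjusted p = 0.0217). Rises followed of 1.34 ± 0.12 to day 4 (adjusted p = 1.32e-09), 3.43 ± 0.11 to day 10 (adjusted p = 1.75e-17) and 0.58 ± 0.10 to day 20 (adjusted p = 1.59e-05), of which the first was 3.07 with 0.1 FPKM added.

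Sox8, often expressed beside Sox10 in oligodendrocytes and beside Sox9 elsewhere, followed the course of Sox10 at lower levels late on. It lay between 0.59 and 0.97 FPKM at day 0 with a median of 0.71, and measured 0.70, 0.66 and 0.47 at day 2 and 2.70, 2.39 and 2.28 at day 4. At day 10 it was 19.5, 19.1, 18.5, 22.4 and 20.1 FPKM, and at day 20 36.9, 29.2, 34.5 and 30.4. Days 0 and 2 overlapped, and from day 4 each day lay above the one before. The steps were -0.09 ± 0.08 (adjusted p = 0.319), 1.10 ± 0.09 (adjusted p = 8.52e-10), 2.60 ± 0.08 (adjusted p = 5.00e-17) and 0.69 ± 0.08 (adjusted p = 6.39e-08), and the first was -0.38 (adjusted p = 0.000295) after quantile normalization and the second 1.86 with 0.1 FPKM added.

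Within the group, day 4 was a day of Sox9 and the late days held all 3 genes. The log2 ratio of Sox10 to Sox9 was -4.06 ± 0.10 (SD, n = 3) at day 4, 0.21 ± 0.08 (SD, n = 5) at day 10 and -0.16 ± 0.32 (SD, n = 4) at day 20. The ratio of Sox8 to Sox9 was -3.79 ± 0.14 (SD, n = 3), -0.35 ± 0.06 (SD, n = 5) and -0.61 ± 0.14 (SD, n = 4) on the same days. In the step from day 4 to day 10 these ratios rose by 4.27 and 3.44 with no overlap of libraries, at the smallest p that 5 against 3 libraries allow (exact permutation p = 0.0357, adjusted p = 0.0504). From day 10 to day 20 both fell, by 0.37 and by 0.26 (exact permutation p = 0.0159, adjusted p = 0.0333 each), as Sox9 rose by more than the other 2. Without day-20 replicate 4, whose Sox10 to Sox9 ratio was -0.63 against -0.053 to 0.052 in the other 3, the first of these falls was 0.21 (adjusted p = 0.0504).

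Of 20 glial genes linked to SoxE factors, 8 rose and 4 fell at day 2, 10 rose and 4 fell at day 4, 19 rose and none fell at day 10, and 14 rose and 5 fell at day 20. The median log2 changes were 0.15, 0.35, 2.26 and 1.25, against 0.07, 0.01, 0.07 and -0.02 for all genes. As 74.1%, 72%, 73.7% and 75.2% of all genes were called, the counts at days 2 and 4 were below that share. The progenitor gene Fabp7 rose at day 4, from 3.62 to 203 FPKM. Gfap, an astrocyte filament, rose from 0.03 FPKM at day 4 to 185 at day 10, and the glutamate transporter gene Slc1a3 from 8.26 to 152. At day 20 the water channel gene Aqp4 rose from 2.63 to 132 FPKM, and Erbb3, a receptor gene of Schwann and oligodendrocyte lineages that Sox10 controls, from 0.976 to 20.9. Among the 5 that fell in that step, Slc1a3 went from 152 to 79.1 FPKM and Fabp7 from 1332 to 962. Over the whole course all 20 rose, as did 55.3% of all genes, with a median of 4.38 against 0.38 for all genes.

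The 4 day-20 libraries were not alike in oligodendrocyte genes. The sum of 7 markers of that lineage was 2610, 2434, 2479 and 1694 FPKM in replicates 1 to 4, and Sox10 was 55.5, 45.1, 47.8 and 33.8, both lowest in replicate 4. Sox9 was 52.8 FPKM in that library, within the range of the others, and Sox8 was 30.4, above the 29.2 of replicate 2. At day 10 the same sum ran from 354 to 408 FPKM, and its highest value and that of Sox10 were both in replicate 4. That library was also the highest of day 10 for Sox8 (22.4 FPKM), Sox9 (27.3) and Sox2 (108), so the match is not particular to Sox10. Its astrocyte marker sum was highest too, at 497.5 against 497.3 in replicate 5, while Sox4 and Sox11 were highest in replicate 1. In day-20 replicate 4 the astrocyte sum was likewise the lowest of its day, at 1875 FPKM. How far the number of oligodendrocyte-lineage cells set the Sox10 level was not tested.

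Of 15 cartilage and neural crest genes linked to SoxE factors, 10 passed the filter. In the 4 steps 5, 3, 6 and 4 of them rose and 3, 4, 3 and 4 fell, with median log2 changes of 0.08, -0.10, 0.45 and 0.01. For all genes the medians were 0.07, 0.01, 0.07 and -0.02, and 74.1%, 72%, 73.7% and 75.2% were called. Ednrb, an endothelin receptor gene that glia also express, rose throughout, from 0.127 FPKM at day 0 to 172 at day 20. Col2a1, the cartilage collagen gene that Sox9 controls, peaked at day 2 with 23.7 FPKM, before Sox9, and fell to 12.2 at day 4 and 2.70 at day 10. The crest factor gene Foxd3, which stem cells also express, was at 16.9 FPKM at day 0, dropped to 0.787 at day 2, was 14.8 at day 4 and ended at 0.475. The sum of 4 cartilage markers was 6.79 to 8.07 FPKM at day 0, 25.0 to 25.8 at day 2 and 2.90 to 4.24 at day 20, and 2 of them, Col9a1 and Matn1, had means below 1 FPKM on every day. The sum of 6 crest and Schwann markers was 23.9 to 37.4 FPKM at day 0, 114 to 117 at day 4, where the receptor gene Ngfr alone was at 98.6, and 23.97 to 29.3 at day 20, where Erbb3 was at 20.9. Of these 6, the pigment cell gene Dct had means below 1 FPKM on every day.

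Sox17, the SoxF gene in the set and a factor of primitive and definitive endoderm, was the one whose day-0 libraries disagreed. Replicates 1, 2 and 3 gave 5.98, 6.47 and 5.79 FPKM, and replicates 4 to 7 gave 26.3, 25.7, 23.1 and 25.4. The second set averaged 4.13 times the first, with a gap far wider than the spread in either. Day 2 gave 49.7, 49.4 and 46.2 FPKM, day 4 36.3, 40.3 and 39.1, day 10 70.8, 67.6, 52.8, 74.2 and 60.3, and day 20 77.4, 63.2, 67.4 and 63.8. All later libraries lay above all of day 0, day 4 lay below day 2 and both below day 10, and days 10 and 20 overlapped.

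Day 2 was above day 0 by 1.73 ± 0.38 (adjusted p = 0.000366) with all 7 day-0 libraries, by 2.80 against replicates 1 to 3 alone and by 0.92 against replicates 4 to 7 alone. Day 20 was above day 0 by 2.20 ± 0.35 (adjusted p = 4.11e-06), or by 3.28 and 1.40 against these sets. No step after day 2 was called in the fit over all libraries, with -0.32 ± 0.45 to day 4 (adjusted p = 0.545), 0.73 ± 0.41 to day 10 (adjusted p = 0.110) and 0.07 ± 0.37 to day 20 (adjusted p = 0.885). That fit shares 1 spread across days, and the day-0 libraries widen it for this gene. In fits of only the 2 days compared, the adjusted p was 0.00117 for the fall to day 4 and 5.49e-05 for the rise to day 10, and with the day-0 libraries left out, a choice made after the values were seen, 0.0105 and 2.41e-06. The rise to day 10 was also called after quantile normalization (0.86, adjusted p = 0.0242) and with equal sums (0.89, adjusted p = 0.0444), while the fall to day 4 was -0.034 (adjusted p = 0.956) with equal sums. The last step turned to -0.04 (adjusted p = 0.912) after quantile normalization, to -0.13 (adjusted p = 0.759) with equal sums and to -0.0058 (adjusted p = 0.992) without replicate 3 of day 10.

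The day-0 libraries also differed in other endoderm genes, most of them in the same direction. The sum of 6 endoderm markers was 17.6 to 18.8 FPKM in the first set and 38.7 to 42.2 in the second. Gata4 averaged 5.46 and 17.6 FPKM in the 2 sets, Foxa2 0.987 and 4.08, and Cubn, a receptor gene of visceral endoderm, 1.69 and 8.18. Hnf4a went the other way without overlap, at 0.833 and 0.473 FPKM, and Afp, at 0.21 and 0.16, overlapped. Among the other members Sox2 averaged 226 FPKM in the first set and 260 in the second, Sox21 3.57 and 4.50, Sox8 0.62 and 0.785, Sox1 4.79 and 3.46 and Sox11 2.73 and 2.00, without overlap between the sets, while Sox3, Sox4, Sox9 and Sox10 overlapped. The ratio of the second set to the first ran from 0.723 for Sox1 to 1.27 for Sox8 in these 5 genes, against 4.13 for Sox17. The share of all genes that split between the sets was not counted, so a split without overlap may not be particular to these genes. The labels give no batch for these libraries, and whether the sets were grown or sequenced apart was not tested.

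Among 14 endoderm genes linked to Sox17, 13 rose and none fell at day 2, 1 rose and 8 fell at day 4, 7 rose and 3 fell at day 10, and 5 rose and 6 fell at day 20. Their median log2 changes were 2.36, -0.69, 0.51 and -0.14, against 0.07, 0.01, 0.07 and -0.02 for all genes. Per step, 74.1%, 72%, 73.7% and 75.2% of all genes were called. Cubn and its partner gene Amn rose from 5.40 to 66.3 and from 5.06 to 58.7 FPKM at day 2 and fell to 11.2 and 9.23 at day 4. The rise at day 4 was that of Cxcr4, a chemokine receptor gene of neurons as well as endoderm, from 2.44 to 81.6 FPKM. Hnf4a, a liver and gut factor gene, rose from 8.20 FPKM at day 10 to 56.5 at day 20, when Sox17 itself was not called.

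Sox17 and Sox18 also act in endothelium, where 5 of 9 listed genes passed the filter. None rose and 3 fell at day 2, and none rose and 3 fell at day 4. At day 10, 4 rose and none fell, and at day 20, 2 rose and 2 fell. Median log2 changes were -0.23, -0.75, 1.19 and -0.22, against 0.07, 0.01, 0.07 and -0.02 for all genes. Of all genes, 74.1%, 72%, 73.7% and 75.2% were called in these steps. Cdh5, an adhesion gene of vessels, rose from 0.283 FPKM at day 4 to 9.95 at day 10 and 26.2 at day 20, while the vessel markers Tie1 and Emcn had means below 1 FPKM on every day. Pecam1, which stem cells also express, fell from 29.3 FPKM at day 0 to 2.09 at day 2.

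The balance between the groups, as summed FPKM, turned over during the course. SoxB1 summed to 253 ± 17.8 FPKM (SD, n = 7) at day 0, 84.6% of the 10-gene sum, and to 108 ± 5.70 (SD, n = 4) at day 20, 25.9% of it. SoxC rose from 24.7 ± 1.17 FPKM (SD, n = 7) at day 0 to 401 ± 2.93 (SD, n = 3) at day 4, 55.4% of the sum, and fell to 71.4 ± 3.72 (SD, n = 4) at day 20. SoxE rose from 1.04 ± 0.16 FPKM (SD, n = 7) to 129 ± 12.8 (SD, n = 4), from 0.348% to 30.9% of the sum. SoxF held 5.42% of the sum at day 0, rose to 14.7% at day 2, was back at 5.33% at day 4 and ended at 16.3%, and SoxB2 grew from 1.36% to 9.73%. The group with the largest mean was SoxB1 at days 0 and 2, SoxC at day 4, SoxB1 at day 10, where it was close to SoxC at 138 ± 9.04 against 130 ± 5.32 FPKM (SD, n = 5), and SoxE at day 20. This order holds for the 10 genes alone: with Sox12 added, SoxC was at 159.5 ± 7.52 FPKM (SD, n = 5) at day 10, above SoxB1. Together the 10 genes made up 300 FPKM at the start, 330.2 at day 2, 724 at day 4, 442 at day 10 and 416 by day 20.

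**Figure D4:**
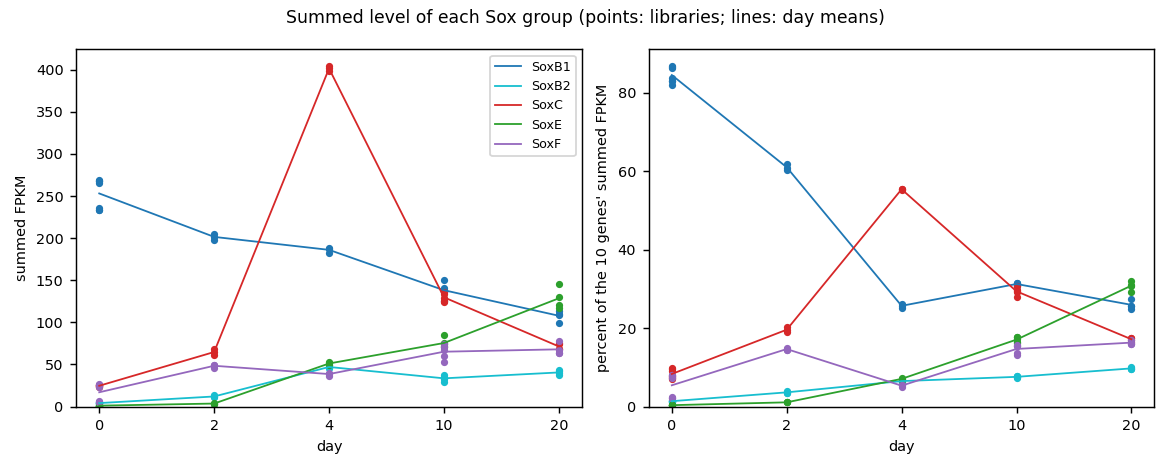
Summed FPKM of each Sox group (left) and its percent of the sum over the 10 genes (right) by day; points are libraries, lines join day means, and SoxB2 and SoxF are 1 gene each, Sox21 and Sox17. SoxB1 declines from 253 to 108 FPKM, SoxC peaks at 401 at day 4, and SoxE reaches 129 at day 20, the largest group on that day.

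Of 10 other Sox genes in the table, 7 passed the filter and Sox18, Sox30 and Sry did not, the last listed at 0 in every library. In the 4 steps 3, 5, 1 and 2 of the 7 rose and 1, 2, 3 and 2 fell. Among all genes, 74.1%, 72%, 73.7% and 75.2% were called in these steps. Sox15, which stem cells share with Sox2, fell from 5.66 ± 0.81 FPKM (SD, n = 7) to 0.617 ± 0.32 (SD, n = 3) at day 2 and was at 0.19 ± 0.06 (SD, n = 5) at day 10 and 2.92 ± 0.74 (SD, n = 4) at day 20. The SoxD gene Sox13 had its peak at day 4 with 33.3 ± 1.37 FPKM (SD, n = 3), as SoxC did, and its relatives Sox5 and Sox6, partners of Sox9 in cartilage and present in glial precursors, were highest at day 20 with 5.34 ± 1.04 and 16.4 ± 2.34 (SD, n = 4). Sox7, a SoxF gene of parietal endoderm, fell from 8.75 ± 0.84 FPKM (SD, n = 3) at day 2 to 2.87 ± 0.29 (SD, n = 3) at day 4 (-1.33 ± 0.27, adjusted p = 0.000137) and stayed low. Sox17 had its highest means at days 10 and 20, which were not called apart. Sox7 was also uneven at day 0, with 3.47 FPKM in replicates 1 to 3 and 8.54 in replicates 4 to 7.

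Likeness of pattern was measured as the root mean square difference in log2(FPKM + 1) over the 22 libraries, each gene centred on its own mean, against 14972 other genes. These values describe genes that share the same libraries and 5 days, and have no test. The measure is not scaled to the size of a gene's own changes, so genes that change little lie nearer. About their own means the members had root mean squares from 0.66 for Sox2 to 2.36 for Sox9. Sox2 was nearest to Arih2 at 0.10, followed by Wdr64 and Kcmf1, of which Arih2 went from 78.9 FPKM at day 0 to 30.1 at day 2. Sox1 was nearest to Aif1l, Six5 and Col27a1, Sox3 to Foxb1 at 0.26, BC048679 and Spsb4, and Sox21 to Plekhh3 at 0.16, Cyth1 and Ano10. For the SoxC genes the nearest were Vangl2 at 0.22, Scube1 and Auts2 for Sox4, and Nrarp at 0.34, Dach1 and Gng2 for Sox11. Sox8 was nearest to Fxyd7 at 0.24, Tgfbr2 and Ppp2r2c, and Sox10 to Prelp, Ntrk2 and Gpr17, an oligodendrocyte precursor receptor gene at 0.31. Sox9 had no gene as near, with Ntng2 at 0.50, Hey1 and 3110035E14Rik. Sox17 was nearest to Gata4 at 0.18, then P4ha1 and Pdgfra, and Gata4 split the day-0 libraries too. Among the members themselves the smallest differences were 0.49 between Sox8 and Sox10, 0.57 between Sox4 and Sox21, 0.82 between Sox17 and Sox21, 0.83 between Sox1 and Sox17 and 0.85 between Sox3 and Sox11. The value of 0.83 is above the 0.80 of Sox1 about its own mean, so it does not show a shared course.

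In the RefSeq annotation Sox1 overlaps Sox1ot, Sox2 overlaps Sox2ot, Sox21 overlaps Gm4675 and Sox4 overlaps Gm46405. The strand used in counting is not given in the sources used here, so reads of these 4 genes and their overlapping transcripts may not have been told apart.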

How the data were processed

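RNA libraries were made from polyA RNA with NEBNext Ultra reagents, per the labels' protocols. The authors deposited 1 table of expression values with a column for each of the 22 libraries, and RSEM, with no version, and the mm9 build are named in the submitters' processing notes. For the aligner and the annotation, neither is named in the labels or notes. The deposited unit was read as FPKM from the values, since the header names none and the sums differ between libraries. Read totals were not used, so depth is unknown.

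Values were tested as deposited on log2(FPKM + 1) with limma 3.58.1 in R 4.3.3, as group means with the empirical Bayes trend and 17 residual degrees of freedom, over genes with at least 1 FPKM in 3 or more libraries. Tests were 2-sided, and gene pairs were compared with exact permutation tests. On simulated data for day 4 against day 2 (14982 genes), 83% of genes changed 1.5-fold and 100% of those changed 3-fold were recovered. Among the unchanged genes 9 were called. Changes were put only into genes well above the filter at day 0, with independent normal noise. Recovery at low levels, or with day-0 libraries split as for Sox17, was not tested. Libraries were grouped by the day in their titles.

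The 10 genes and all gene lists were chosen with earlier results of these data known. Named genes were the 10 members, the other Sox genes, up to 4 called genes per list and step with the largest change and a higher mean of 5 FPKM or more, of which a selection is given and some are not reported here, and the 3 genes nearest to each member. Marker genes, overlapping genes, genes at day 0 and genes not called are given as levels only. Other pseudocounts, filters, scalings, fits and left-out libraries were tried. Promoters are from RefSeq.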

Additional observations from a re-analysis of the deposited data

Results flagged for a closer look

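In 4 of the 30 groups of 4 to 7 libraries checked, 1 library stood far from the others, where chance gives about 1 in 20. Sox3 was 9.13 FPKM in day-20 replicate 2 and 12.04 to 12.38 in the other libraries of that day. Sox11 was 29.06 FPKM in day-10 replicate 1 and 27.0 to 27.57 in the others. Sox8 was 0.97 FPKM in day-0 replicate 5 and 0.59 to 0.75 in the others. Sox10 was 35.01 FPKM in day-10 replicate 4 and 27.55 to 29.58 in the others. The change calls of these genes held without each of these libraries.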

How the results depend on the processing

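Of 960 recomputed changes of single members, 937 kept their direction and their side of the threshold, 16 newly passed it, 2 no longer did and 5 changed sign. The sign changed for Sox17 between days 10 and 20 (-0.042 after quantile normalization, -0.13 with equal library sums, -0.0058 without day-10 replicate 3 and up to 0.11 without other libraries), for Sox11 between days 0 and 20 (-0.16 after quantile normalization) and for Sox2 between days 2 and 4 (0.10 with equal sums). The cause was not tested. The number of members called ranged from 8 to 10 for day 2 against day 0, 7 to 10 for day 4 against 2, 8 to 10 for day 10 against 4 and 8 to 9 for day 20 against 10, and leaving out any 1 library gave 8, 8, 8 and 9. It was 10 for day 20 against day 0 under every alternative. As deposited, the fit over all libraries called 74.1%, 72%, 73.7%, 75.2% and 90.8% of all genes in these comparisons, so such counts are not particular to the members. Of the 24 comparisons of gene pairs, 12 passed, namely all 6 in the step to day 2 and all 6 in that to day 20. The count was also 12 under the 3 other settings, and 0 to 12 with 1 library left out, since fewer libraries raise the smallest possible p. No clear pairing by replicate number was seen: the correlation of deviations passed 0.1 in 2 of 34 same-numbered pairs (-0.15 to 0.22). Pairs with different numbers were not compared, so this check cannot decide whether libraries were paired. A fit with the replicate number as a block called 8, 8, 9, 9 and 10 members in the 4 steps and over the whole course, the addition being Sox1 at day 10 (0.23, adjusted p = 0.0490). The same block fit called 10954, 10956, 11068, 11392 and 13565 of all 14982 genes. Scaling moved the median of all genes: for day 20 against day 0 it was 0.38 as deposited, -0.07 after quantile normalization and 0.58 with equal sums, and the higher share of calls was 60.9%, 47.8% and 67.1%. With equal sums that share was 68.6% in place of 52.8% for day 4 against 2, 66.5% in place of 56.2% for day 10 against 4, and 37.1% in place of 49.4% for day 20 against 10. Depth is unknown, so the counting error of levels below 1 FPKM, as for Sox9 and Sox10 at day 0, could not be estimated.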
